A study of Mus musculus with 40 samples.

Results

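The 38 genes described here encode the liver-made proteins of blood clotting and of complement, and their RNA was measured in fetal mouse liver at gestational day 18.5. They were taken by gene symbol from a table of 20593 genes. The list applied no cut to measured values, but was chosen with earlier results of these data known. It held 5 genes of the contact system, 5 further clotting factors, 4 genes of fibrin formation, 3 of fibrinolysis, 6 inhibitors of clotting or of C1, 4 of the lectin pathway, 5 of the complement core and 6 of the terminal complement pathway. Fetuses came from C57BL/6 dams whose diet crossed fat with folic acid, and each of the 8 groups of fetal sex and diet had 5 libraries, 1 mouse each. CD dams ate 10% of kcal as fat with 2 mg folic acid per kg of diet, CDF dams 10% fat with 10 mg/kg, WD dams 45% fat with 2 mg/kg and WDF dams 45% fat with 10 mg/kg; M and F stand for male and female fetuses. The 45% fat diet was given as a model of gestational diabetes, and all dams had been on their diet for 13 weeks before breeding and stayed on it through pregnancy. The labels do not say which fetuses shared a dam, so the p-values below treat each fetus as independent.

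Clotting runs as a chain of serine proteases: contact factors and the tissue factor pathway activate factor X, factor X makes thrombin from prothrombin, and thrombin cuts fibrinogen into fibrin, which plasmin later dissolves. Complement is a parallel protease chain in which the classical, lectin and alternative routes meet at C3, and the terminal proteins C5 to C9 then build a pore in the target membrane. Hepatocytes make most of the circulating proteins of both systems, and at this stage of development they share the liver with a large population of blood-forming cells. In RNA from whole tissue, fewer cells of a type and less RNA per cell cannot be told apart.

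Values are normalized counts, that is, read counts that the authors had divided by a size factor for each library. The 38 libraries used here summed to between 15000000 and 27800000 normalized counts, with a median of 17000000, rounded to 3 digits. Replicate 4 of the CD females and replicate 5 of the CDF females were left out by the rule that defines the comparison: their albumin (Alb) stood at 0.658% and 0.451% of the median of the other libraries, and the surfactant gene Sftpc at 101200 and 67010 against a median of 4.05. Lung genes were also present in some of the libraries kept. The sum over 11 lung markers reached 43390 in a CD female, 30320 in a CDF female and 9369 in a WDF male, against a median of 334.4 in CDF males and 333.8 in WD males. In a fit that also left out the first 2 of these libraries, 0 members passed the adjusted threshold in any comparison, as in the fit reported. The hepatocyte markers fitted the liver label in every library kept, with Alb between 641900 and 1497000.

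Most of the 38 genes were very low in the left-out libraries. In both, 35 of the 38 genes lay below the lowest of the other 38 libraries, and 31 of them stood under 5% of the median. C9, the pore-forming last component of complement, was listed at 0 in both. Pros1 (protein S, a cofactor of activated protein C) went the other way, with 1313 and 1103 against 190.9 to 639.5 in the libraries kept. C6, which joins the membrane attack complex after C5, had 202.8 and 137.2 against a range of 52.1 to 202.1. Hc, the mouse gene of complement C5, and Serping1, the inhibitor of C1, were the next least reduced: Hc stood at 58.8% and 35.3% of the median and Serping1 at 52.0% and 36.3%.

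**Figure D1:**
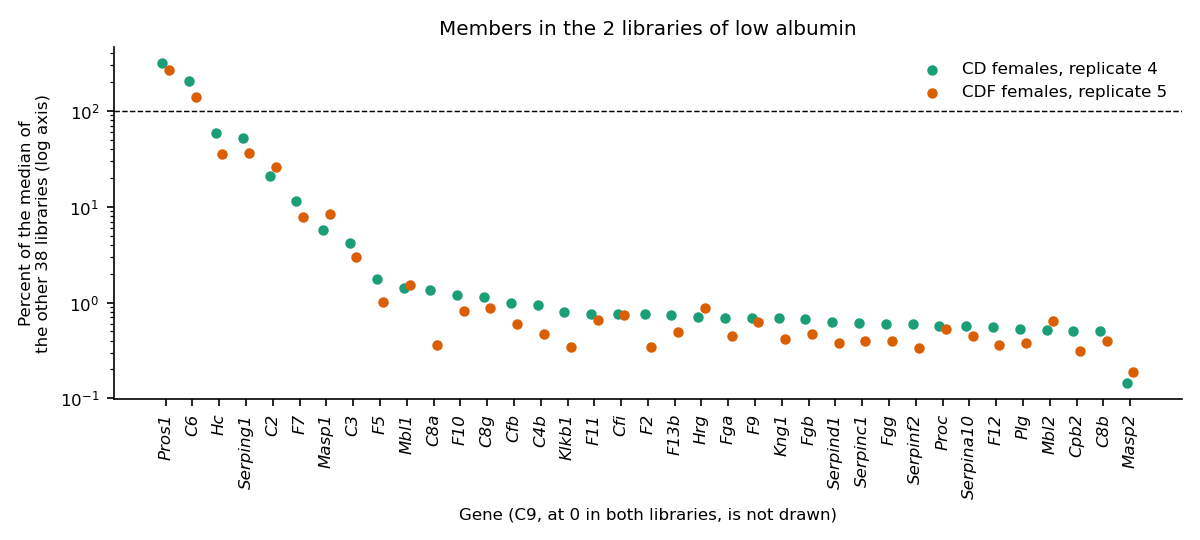
Level of 37 of the 38 genes in the 2 libraries of low albumin, as a percentage of the median of the other 38 libraries (vertical log axis, dashed line at 100%); each gene has 1 point per library. Pros1 and C6 lie above the line in both libraries, and 31 of the 38 genes, among them C9 at 0, which is not drawn, stood under 5%.

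All 38 genes were detected at 10 or more normalized counts in each of the 38 libraries. Their summed level took 3.68% of a library's total at the median, with a range of 1.78% to 4.90%, and the 3 fibrinogen chains alone took 1.98% (0.73% to 2.81%). The fibrinogen chains therefore made up 53.8% of the members' sum at the median library. By group, the members' share was lowest in CDF females at 3.26% ± 1.10 (SD, n = 4) and highest in CDF males at 3.89% ± 0.536 (SD, n = 5), and the ranges of these groups overlapped.

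Levels between genes were compared per kb of exon. The fibrin group led: Fgg, Fga and Fgb, the gamma, alpha and beta chains of fibrinogen, had means of 47070 ± 7175, 37890 ± 9828 and 30200 ± 7412 normalized counts per kb (SD, n = 38). F13b, the carrier subunit of the transglutaminase that cross-links fibrin, was far lower at 890.4 ± 267.9 per kb. Of the contact genes, Kng1, which encodes kininogen, the source of bradykinin, stood highest at 14620 ± 1860 per kb. F12, Hrg, F11 and Klkb1 lay between 600.0 and 2408 per kb.

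Among the other clotting factors, F2 (prothrombin) had 5542 ± 541.5 per kb and F10 2650 ± 316.1, while F5, F9 and F7 lay between 158.7 and 225.0. Fibrinolysis genes were all abundant: Serpinf2, the plasmin inhibitor alpha-2-antiplasmin, Plg, the plasmin precursor, and Cpb2, which trims plasmin's binding sites from fibrin, had 9147, 7619 and 4502 per kb. Inhibitors ran from 2634 per kb for Serpind1 (heparin cofactor II) to 100.1 ± 22.1 for Pros1. Per kb of the longest transcript, Serpinc1 (antithrombin, 3679) and Proc (protein C, 3235) stood above Serpind1, so the order of the inhibitors depended on the length used. C3, the protein on which the complement routes meet, was the fifth of all at 11340 ± 2711 per kb, ahead of Cfb (4513) and Cfi (3636), which help build and take apart the alternative pathway's convertase.

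The lectin pathway and the terminal genes were low by comparison. The mannose-binding lectins Mbl2 and Mbl1 had 994.0 and 649.8 per kb and their proteases Masp2 and Masp1 344.3 and 154.2. Terminal genes spanned from C8b at 1799 per kb down to C9 at 53.4 ± 31.9 and C6 at 30.2 ± 10.1, the lowest of the 38. F7, Masp1 and Pros1 complete the lowest 5. Each gene's range over the 38 libraries overlapped that of its neighbour in the order, so no step between neighbours was larger than the spread. Taking the longest transcript as the length in place of all exons changed no rank among the first 5, but took Masp1 out of the lowest 5 (283.7 per kb, rank 31).

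**Figure D2:**
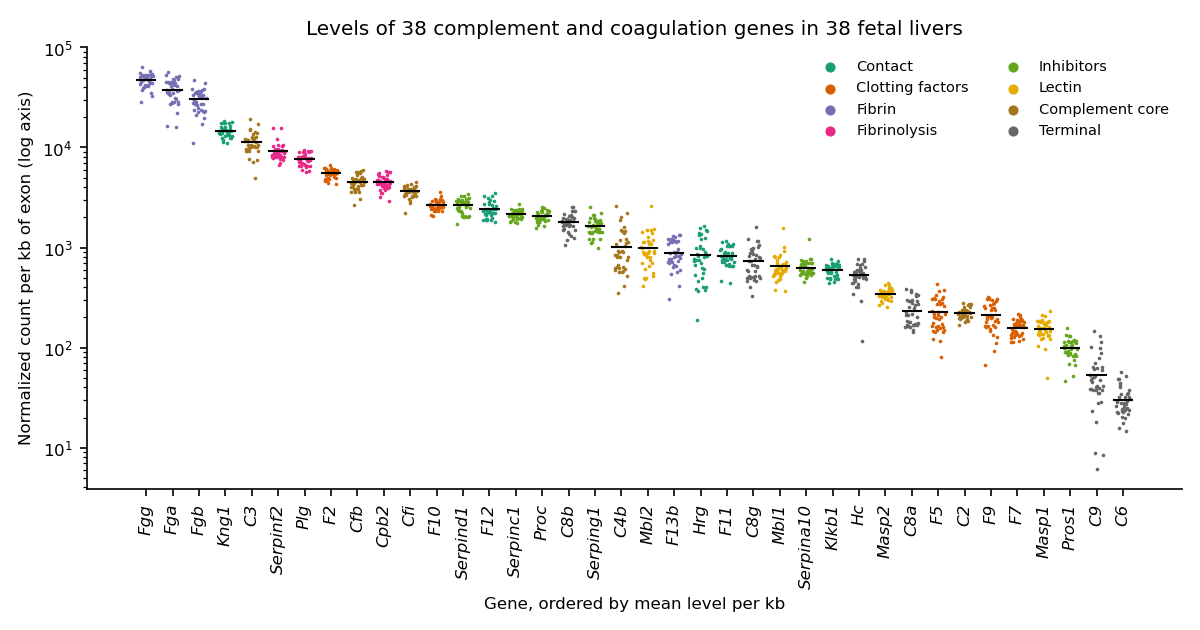
Normalized count per kb of exon (vertical log axis) of the 38 genes, ordered by mean; each point is 1 of 38 libraries, colours give the role and black bars the mean. Fibrinogen chains lie at 30200 per kb or more on average and C6 at 30.2 per kb.

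The 3 fibrinogen genes lie side by side on chromosome 3, with lower coordinates 18.4 kb (Fgg to Fga) and 14.1 kb (Fga to Fgb) apart. Fgb is read from the opposite strand, so its lower coordinate is its end and not its start. The upstream bases of the 3 genes are shown because these genes dominate the total and vary together, as described below. The lines give the bases upstream of the RefSeq start (GRCm38.p6), 5′ to 3′ on the gene's strand, at chr3:83007474-83007723 for Fgg (+), chr3:83025903-83026075 for Fga (+) and chr3:83049864-83050113 for Fgb (-). Bases that the GENCODE gene model already holds were left out. Capitals mark matches, on either strand, to an HNF1-like motif (GTTAAT, any 2 bases, then TT), TTNNGCAA (C/EBP-like) or TTCNNNGAA (STAT-like).
Fgg: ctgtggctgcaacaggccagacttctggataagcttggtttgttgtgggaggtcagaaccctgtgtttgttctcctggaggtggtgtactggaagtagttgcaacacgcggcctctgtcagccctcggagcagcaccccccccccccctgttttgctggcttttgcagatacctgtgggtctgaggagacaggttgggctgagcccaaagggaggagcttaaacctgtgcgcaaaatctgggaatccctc
Fga: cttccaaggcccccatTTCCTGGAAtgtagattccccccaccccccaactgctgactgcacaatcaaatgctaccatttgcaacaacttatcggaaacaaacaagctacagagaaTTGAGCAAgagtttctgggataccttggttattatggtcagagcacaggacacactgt
Fgb: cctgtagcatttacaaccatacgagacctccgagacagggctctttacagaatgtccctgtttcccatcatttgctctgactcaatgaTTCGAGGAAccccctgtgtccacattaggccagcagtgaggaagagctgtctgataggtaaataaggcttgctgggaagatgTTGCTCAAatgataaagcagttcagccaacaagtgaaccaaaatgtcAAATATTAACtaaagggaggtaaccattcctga
Fgb holds all 3 motifs, with first bases 33, 80 and 162 before the start, Fga holds TTGAGCAA and TTCCTGGAA, and the Fgg window holds none of these letters. Within the 250 bases upstream, the HNF1-like motif stood in 0.938% of 32851 promoters and in 3 of the 28 members found in the RefSeq table (F13b, Fgb and Hc). TTNNGCAA stood in 9.56% of promoters and in 8 of the 28, and TTCNNNGAA in 7.02% and in 6 of the 28. The percentages count promoters, while a member was counted if any of its promoters matched, so the shares are not of the same unit. A match describes the letters only and is not evidence of binding.

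The question of the design is whether maternal fat, maternal folic acid and fetal sex change these genes in the fetal liver. None of the 38 genes passed an adjusted p of 0.05 in any of 15 comparisons fitted with limma over 15377 genes (Benjamini-Hochberg). Over all genes the same threshold called 0 genes (0%) in 13 of them, 7 genes (0.0455%) for fat over the 4 strata of folic acid and sex, and 9 genes (0.0585%) for sex. Below, values with an unadjusted p under 0.05 are given beside the share of all genes at that level. The comparisons share groups: WD males and CDF males are each set against WDF males, so counts from those comparisons are not separate evidence.

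**Figure D3:**
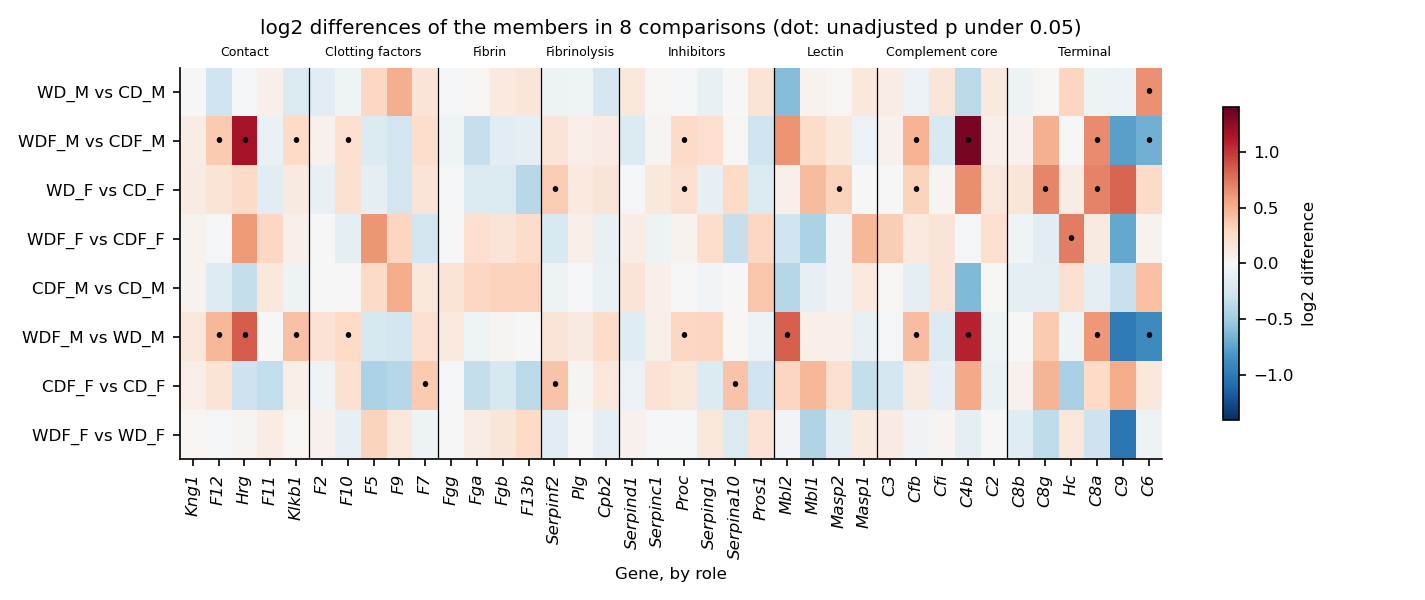
log2 difference of each of the 38 genes (columns, grouped by role) in the 8 comparisons between single groups (rows); red is higher and blue lower in the group named first, and a dot marks an unadjusted p under 0.05. The rows of WDF males against CDF males and against WD males hold 9 and 10 dots; no value passed the adjusted threshold.

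Of the 8 comparisons between single groups, the 2 with the most members at that level involved WDF males, the male fetuses of dams on high fat with extra folic acid. Against WD males, which differ by folic acid alone, C4b was higher by 1.08 on the log2 scale, F12, Klkb1, Cfb, F10 and Proc were higher by 0.28 to 0.46 and C6 had -0.89, and the 5 libraries of each group did not overlap for any of these 7 genes. Over all genes tested, groups without overlap were found for 1.34% with WDF higher and 1.18% with WDF lower, against 6 and 1 of the 38 members. At an unadjusted p under 0.05, 9 members were higher and 1 was lower, beside 4.77% and 4.04% of all genes. The median difference of the members was 0.08 on the log2 scale, with 25 of 38 higher (all genes: 0.01, 51.4% higher).

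C4b encodes complement C4, which the classical and lectin routes split to form the C3 convertase. Its normalized counts were 5250, 5137, 3569.5, 3226 and 4563 in WD males and 6796, 10830, 11486, 8453 and 8424 in WDF males. All 5 WDF values lay above all 5 WD values, and the log2 difference was 1.08 ± 0.36 (SE; unadjusted p = 0.00488, adjusted p = 0.46, limma). Reads of C4b can be shared with its near-identical neighbour C4a, which was low here, at 59.8 ± 22.0 (SD, n = 5) in WDF males and 29.7 ± 18.1 in WD males.

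Cfb, the factor B of the alternative convertase, lies on chromosome 17 with its lower coordinate 128.0 kb from that of C4b. It had 12454, 12847, 10483, 10067 and 10924 in WD males and 16026, 13672, 15015, 15558 and 16022 in WDF males. The WDF libraries were all higher, by 0.43 ± 0.14 on the log2 scale (unadjusted p = 0.00479, adjusted p = 0.46, limma). C2, whose lower coordinate lies 6.2 kb from that of Cfb, and C3 were not among the genes with an unadjusted p under 0.05.

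Of the contact genes, F12 (factor XII) had 3744, 3729.7, 3758, 4293 and 4523 in WD males and 4727, 6093, 5624, 5364 and 5869.8 in WDF males. The difference of 0.46 ± 0.15 had an unadjusted p of 0.00321 (adjusted p = 0.44, limma). Klkb1, plasma prekallikrein, which factor XII activates, had 2633, 2524, 2525, 2937 and 2982 in WD males and 4044, 3585, 3378, 3659 and 3374 in WDF males. It differed by 0.41 ± 0.13 (unadjusted p = 0.00362, adjusted p = 0.45, limma), again with no overlap. Hrg, histidine-rich glycoprotein, which binds heparin and plasminogen, was higher by 0.85 ± 0.40, with overlapping groups (739.4 to 2685 against 1962 to 3102).

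The upstream letters of F12 and Klkb1, a contact protease and its substrate that differed in the same direction, are shown at chr13:55426805-55427054 (-) and chr8:45294860-45295085 (-), with the same build, strand convention and capitals as for the fibrinogen genes.
F12: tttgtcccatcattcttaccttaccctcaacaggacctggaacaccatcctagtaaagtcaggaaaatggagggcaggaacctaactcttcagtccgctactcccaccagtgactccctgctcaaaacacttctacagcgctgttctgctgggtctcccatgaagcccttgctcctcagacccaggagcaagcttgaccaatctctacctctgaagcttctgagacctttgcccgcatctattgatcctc
Klkb1: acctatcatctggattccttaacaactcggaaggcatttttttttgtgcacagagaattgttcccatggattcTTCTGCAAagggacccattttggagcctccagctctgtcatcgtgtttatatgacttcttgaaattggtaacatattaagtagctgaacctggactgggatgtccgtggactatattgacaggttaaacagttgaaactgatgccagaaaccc
Klkb1 holds 1 match, TTCTGCAA, and the F12 window holds none of the 3 motifs.

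F10, the factor X on which both starting routes of clotting act, had 6651.5, 6682, 6307.5, 6798 and 6262 in WD males and 8326, 7827, 7776, 8237 and 7618 in WDF males, a log2 difference of 0.28 ± 0.11 (unadjusted p = 0.0109). Proc, protein C, whose active form degrades factors V and VIII, had 4511, 4509, 4697, 4848 and 4912 in WD males and 5711, 5133, 5574, 6004 and 6361 in WDF males. Its difference was 0.29 ± 0.10 (unadjusted p = 0.00675). Both genes had narrow spreads, and the groups were separate for both. F7, whose start lies 11.3 kb from that of F10 on chromosome 8, did not reach an unadjusted p of 0.05.

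Mbl2 had 960.6, 670.8, 529.4, 926.9 and 543.7 in WD males and 1613, 1639.5, 868.9, 1401 and 958.1 in WDF males, a log2 difference of 0.83 ± 0.33 (unadjusted p = 0.0166) with overlap. C8a, the alpha chain of complement C8, was higher by 0.61 ± 0.23 (unadjusted p = 0.0108), at 580.5 to 1069 in WD males and 1023 to 1355 in WDF males. C6 went the other way. Its counts were 156.7, 150.5, 100.1, 202.1 and 120.8 in WD males and 86.3, 83.2, 71.8, 80.1 and 62.5 in WDF males, all 5 lower, with a log2 difference of -0.89 ± 0.25 (unadjusted p = 0.00136, adjusted p = 0.44, limma). The next smallest p values on the lower side were those of C9 (-0.99 ± 0.58) and Cfi (-0.20 ± 0.13), neither under 0.05 before adjustment.

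**Figure D4:**
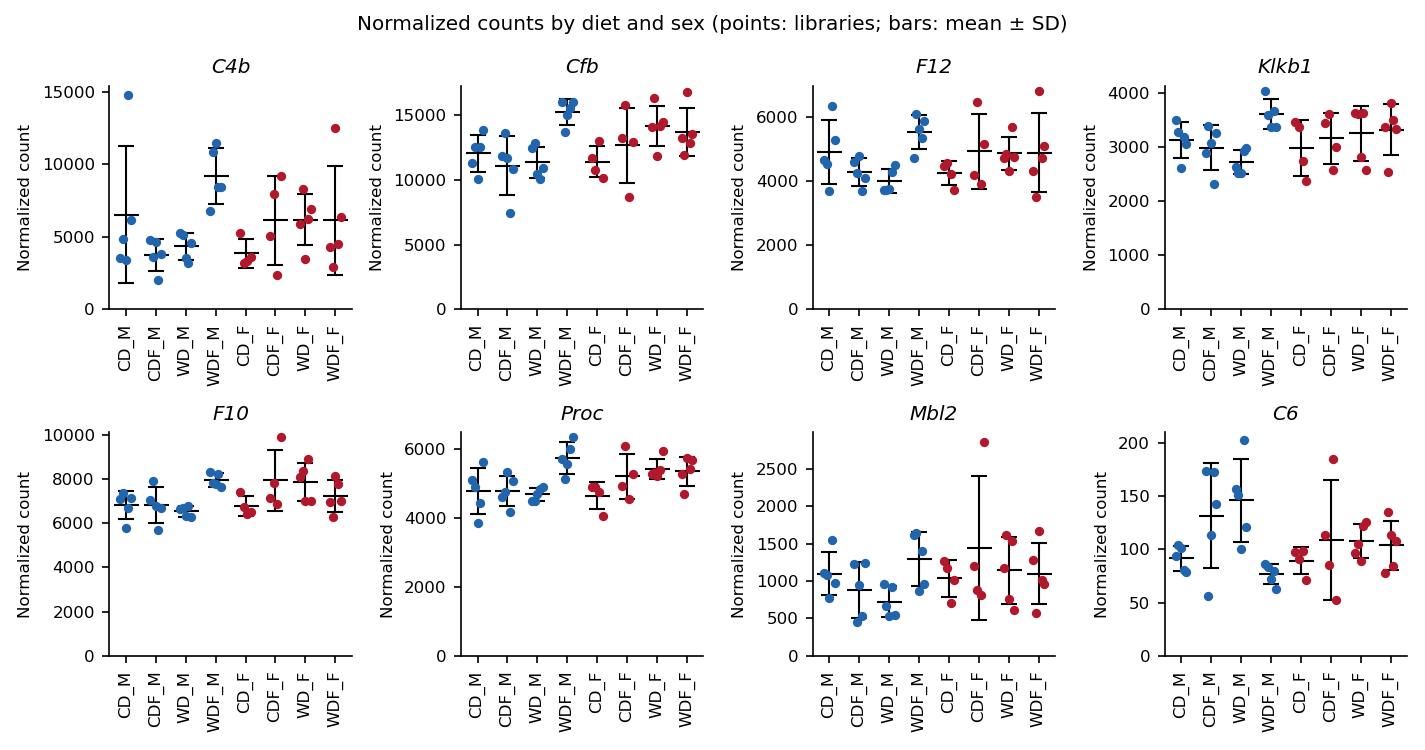
Normalized count (vertical axis from 0) of 8 genes in the 8 groups; points are libraries (blue male, red female) and bars the mean ± SD, with n = 4 for CD and CDF females and n = 5 otherwise. C4b, Cfb, F12, Klkb1, F10 and Proc lie higher and C6 lower in each WDF male than in each WD male, and no such separation is seen between WDF and WD females.

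The authors' deposited table of WDF against WD males called 203 of 13715 genes (1.48%) and 7 of the 38 members at an adjusted p under 0.05. In the authors' deposited table the log2 fold changes of these 7 were 1.01 for C4b (adjusted p = 5.41e-05), -0.82 for C6 (0.00536), 0.41 for F12 (0.007), 0.36 for Klkb1 (0.0108), 0.37 for Cfb (0.012), 0.25 for F10 (0.0123) and 0.68 for Mbl2 (0.0383). Proc missed their threshold at 0.056. Their calls came from the same libraries as the values above and are not independent of them. For some members not called, the deposited fold changes were far smaller than the limma differences. Hrg had 0.19 against 0.85 and C9 -0.028 against -0.99, so the sizes are not on a common scale. In the authors' deposited tables of the other 3 folic acid comparisons, 0 members were called, beside 4 of 18559 genes for control diet females (0.0216%), 7 of 16012 for control diet males (0.0437%) and 0 of 18391 for western diet females (0%).

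Hepatocyte markers differed between these 2 groups as well. Of 15 hepatocyte markers, 13 were higher in WDF males, with a median log2 difference of 0.36, and their sum ran from 2603000 to 2853000 in WD males and from 2902000 to 3451000 in WDF males. Alb itself differed by -0.01. With the mean level of these markers as a covariate, the difference of F12 was 0.26 (unadjusted p = 0.0777), of Klkb1 0.16 (unadjusted p = 0.14), of Cfb 0.30 (unadjusted p = 0.0556), of C4b 0.69 (unadjusted p = 0.0741) and of C6 -0.77 (unadjusted p = 0.01), all by limma. With it, 1 member was higher and 1 lower at an unadjusted p under 0.05 (all genes: 4.47%), and the members' median was -0.07. Megakaryocyte markers were higher in 12 of 12, with sums of 5135 to 6165 in WD males and 6757 to 9279 in WDF males, and 14 of 16 erythroid markers were lower, with overlapping sums. All 11 lung markers were higher, with sums of 268.1 to 379.2 in WD males and 331.9 to 9369 in WDF males; leaving out each library in turn kept the difference of C4b between 0.98 and 1.18 and that of C6 between -1.01 and -0.76.

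Other genes of the pathways, on lists of those made in liver or in other cells, of the vitamin K cycle, of hepatocyte transcription factors and of the acute phase, had 0 members past the adjusted threshold in any of the 15 comparisons. In WDF against WD males, 23 of 29 further liver-made pathway genes were higher (median 0.10), with the smallest p for Vtn, vitronectin (0.51 ± 0.19, unadjusted p = 0.0114), and C1rl (0.31 ± 0.13). Of the acute-phase genes 10 of 14 were higher, led by Fgl1 (0.78 ± 0.27) and Hp, haptoglobin (0.58 ± 0.25). Vkorc1, the epoxide reductase that recycles vitamin K for the clotting factors, was higher by 0.45 ± 0.22 (unadjusted p = 0.0465), while Vkorc1l1 had -0.31 ± 0.19. Among the transcription factors Nr1i3, the nuclear receptor CAR, had 1.00 ± 0.35 and Onecut2 0.55 ± 0.21. The genes made in other cells were led by Cr1l (-0.30 ± 0.11) and Vwf, von Willebrand factor (0.76 ± 0.36).

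Set against CDF males, which differ by fat at high folic acid, WDF males showed 8 members higher and 1 lower at an unadjusted p under 0.05 (all genes: 3.43% and 3.47%). C4b was 4790, 3612, 4619.9, 2004 and 3792 in CDF males, each below each WDF male, and differed by 1.33 ± 0.36 (unadjusted p = 0.000772, adjusted p = 0.42, limma). Cfb, with 7455 to 13635 in CDF males, differed by 0.49 ± 0.14 (unadjusted p = 0.00172), also without overlap. These 2 were the only members whose groups were separate (all genes: 1.03% higher and 1.05% lower). C8a was higher by 0.67 ± 0.23 and Hrg by 1.17 ± 0.40, while C6 had -0.67 ± 0.25 (unadjusted p = 0.0122). All 12 megakaryocyte markers stood higher (median 0.46), and their sums ran from 4577 to 7336 in CDF males and 6757 to 9279 in WDF males. All 11 lung markers were higher (median 1.68), with sums of 241.1 to 373.0 and 331.9 to 9369, and 11 of 15 hepatocyte markers (median 0.09), with overlapping sums. With the hepatocyte score as a covariate 5 members were higher and 1 lower (all genes: 5.77%), and with limma-voom 5 and 1 (all genes: 5.35%).

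The interaction of folic acid with fat in males asks whether the folic acid difference under the western diet departs from that under the control diet. C4b had an interaction of 1.70 ± 0.51 on the log2 scale (unadjusted p = 0.00195, adjusted p = 0.29, limma), with CDF males at -0.62 ± 0.36 from CD males, or -0.27 without CD replicate 4. C6 had -1.31 ± 0.36 (unadjusted p = 0.000899, adjusted p = 0.29, limma), with CDF males at 0.42 ± 0.25 from CD males. F12 had 0.64 ± 0.21 and Cfb 0.57 ± 0.20. In all, 7 members were higher and 2 lower at an unadjusted p under 0.05, where 6.1% of all genes were higher and 6.21% lower. With the hepatocyte score as a covariate 1 was higher and 1 lower (all genes: 5.69%), with interactions of 1.17 for C4b and -1.15 for C6. CD replicate 4 held the highest C4b of all libraries (14757), against 3394 to 6179 in the other 4 CD males, and without it the interaction of C4b was 1.35.

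Limma's weights by library gave other counts. With them, 8 members passed the adjusted threshold in WDF against WD males: C4b (1.23, adjusted p = 0.0163), F12 (0.51, 0.0163), Klkb1 (0.45, 0.0303), C8a (0.65, 0.0336), Cfb (0.48, 0.0355), F10 (0.31, 0.0402), Mbl2 (0.94, 0.0413) and Proc (0.30, 0.0486), with 621 genes in all. Against CDF males C4b, Cfb and C8a passed, with 241 genes in all. The interaction in males passed for C4b, F12, Cfb and C6, with 397 genes. For fat over the 4 strata C8g (0.50, adjusted p = 0.00822, limma with weights), C8a (0.35, 0.0313) and C4b (0.51, 0.0453) passed, with 486 genes. These counts of genes, and the 621 above, are out of 15377 tested. Over the alternatives the adjusted p of C4b in WDF against WD males ranged from 0.0163 to 1.

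The same folic acid comparison was made in females. WDF against WD females had 0 members at an unadjusted p under 0.05 (all genes: 0.774% higher and 0.663% lower), a member median of -0.01, and 17 of 38 higher (all genes: 50.8%), and 0 members had groups without overlap (all genes: 0.137% higher and 0.169% lower). C4b, at 6133 ± 3778 (SD, n = 5) in WDF females and 6182 ± 1767 in WD females, differed by -0.14 ± 0.36, and C6 by -0.07 ± 0.25. The lowest p values were those of Mbl1 (-0.42 ± 0.23), C9 (-1.01 ± 0.58) and C8a (-0.29 ± 0.23), and on the higher side F5 (0.31 ± 0.34), Pros1 (0.20 ± 0.22) and F13b (0.27 ± 0.31). A separate test of the folic acid effect between the sexes gave 0 members at an unadjusted p under 0.05 (all genes: 0.481% higher and 0.592% lower), with 8 of 38 members more positive in females (all genes: 48.5%). It averages over both fat levels and gave -0.04 ± 0.37 for C4b and 0.27 ± 0.26 for C6, so a sex difference in the WDF values above was not shown.

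Under the western diet at ordinary folic acid, females showed 6 members higher and 0 lower than CD females at an unadjusted p under 0.05 (all genes: 3.06% and 3.51%). Proc had 5290, 5315, 5219.9, 5404 and 5939.6 in WD females and 4892, 4911, 4765 and 4058 in CD females, with no overlap, and differed by 0.23 ± 0.11 (unadjusted p = 0.0428). It was the only member without overlap (all genes: 1.24% higher and 1.32% lower). C8a had 524.7 to 789.9 in CD and 628.9 to 1255 in WD females (0.70 ± 0.24, unadjusted p = 0.0063, adjusted p = 0.66, limma). Masp2 was higher by 0.31 ± 0.12 and C8g, the gamma chain of C8, by 0.68 ± 0.32, and all 6 terminal genes had values above 0. For Hc the sign rested on CD replicate 5, at 1844 against 3582 to 4201 in the other CD females kept. The 4 fibrin genes were all below 0. For Fgg the sign rested on WD replicate 5, at 74183 against 92943 to 121030 in the other WD females. F13b had -0.39 ± 0.32. F2 (-0.11 ± 0.12) and Pros1 (-0.20 ± 0.23) had the next smallest p on the lower side, and without WD replicate 5 these 3 genes came to -0.16, -0.027 and -0.087. All 16 erythroid markers were higher in WD females (median 0.38) and all 11 lung markers lower (median -1.18). With the erythroid score as a covariate 2 members were higher and 0 lower (all genes: 1.26%), and with limma-voom 2 and 0 (all genes: 7.23%). Without CD replicate 5, the library richest in lung RNA of those kept, and CDF replicate 4, the difference was 0.62 for C8a, 0.84 for C8g, 0.22 for Masp2 and 0.16 for Proc.

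CDF against CD females gave 3 members higher and 0 lower at an unadjusted p under 0.05 (all genes: 3.83% and 3.95%): Serpina10, the protein Z-dependent inhibitor of factor X (0.40 ± 0.18), Serpinf2 (0.40 ± 0.18) and F7, the factor that works with tissue factor (0.37 ± 0.17). Replicate 4 of the CDF females carried much of the first pair, with Serpina10 at 4289 against 1931 to 2443.5 in the other 3. Leaving that library out brought Serpina10 to 0.15 and Serpinf2 to 0.18. With the length index described below as a covariate, or with limma-voom, 0 members reached that level (all genes: 2.52% and 15.2%). F11 (-0.35 ± 0.23), Hc (-0.45 ± 0.31) and Masp1 (-0.34 ± 0.27) were lower without reaching that level, and without that library they came to -0.13, 0.11 and 0.082. Hc stood at 725.4 in replicate 4, against 3339 to 3713 in the other 3 CDF females.

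WDF against CDF females had Hc alone at an unadjusted p under 0.05 (0.71 ± 0.30, unadjusted p = 0.0213, limma; all genes: 4.23% higher and 3.91% lower), and without CDF replicate 4 it was 0.15. The next smallest p values belonged to C2 (0.24 ± 0.12) and Masp1 (0.47 ± 0.26) on the higher side and Serpina10 (-0.32 ± 0.17), Mbl1 (-0.44 ± 0.24) and F7 (-0.26 ± 0.16) on the lower. Without CDF replicate 4, Masp1 came to 0.050, Serpina10 to -0.079 and Mbl1 to -0.093. The interaction of folic acid with fat in females had 0 members higher and 5 lower at that level (all genes: 5.03% and 7.86%), led by Mbl1 (-0.88 ± 0.34, unadjusted p = 0.0144), Serpina10 (-0.60 ± 0.23) and Serpinf2 (-0.56 ± 0.24). On the higher side F5 (0.75 ± 0.51), F11 (0.45 ± 0.30) and Pros1 (0.48 ± 0.33) had the smallest p. Without CDF replicate 4 the interaction was -0.54 for Mbl1, -0.35 for Serpina10 and -0.34 for Serpinf2. With the length index as a covariate 0 members were lower (all genes: 1.83%), and with limma-voom 1 was (all genes: 16.6%).

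The remaining comparisons of males had few members at that level. WD against CD males had C6 alone at an unadjusted p under 0.05 (0.64 ± 0.25, unadjusted p = 0.0176, limma; all genes: 3.35% higher and 3.3% lower), with F9, factor IX (0.51 ± 0.32), and Cfi (0.17 ± 0.13) next by p. On the lower side F12 (-0.28 ± 0.15), Mbl2 (-0.60 ± 0.33) and Cpb2 (-0.23 ± 0.15) had the smallest p. Without CD replicate 4, F9 came to 0.19, Cfi to 0.023 and F12 to -0.18. C6 in CD males was 93.7, 103.9, 101.3, 80.2 and 79.1, so 4 of the 5 WD males lay above all CD males. CDF against CD males had 0 members at that level (all genes: 1.5% higher and 1.98% lower); the smallest p were those of Pros1 (0.39 ± 0.22), C6 and F9 (0.52 ± 0.32) on the higher side and of C4b, F12 (-0.18 ± 0.15) and Mbl2 (-0.40 ± 0.33) on the lower. Without CD replicate 4, Pros1 came to 0.16, F9 to 0.21 and F12 to -0.081, and without CDF replicate 2 Mbl2 came to -0.19. In these comparisons 0 members had groups without overlap, beside 0.826% of all genes higher and 0.676% lower for WD against CD males and 0.267% and 0.455% for CDF against CD males.

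Averaged over the 4 strata of folic acid and sex, fat gave 6 members higher and 0 lower at an unadjusted p under 0.05 (all genes: 3.25% and 4.25%), and 29 of 38 members were higher, beside 49.8% of all genes. The 3 of smallest p were C8a (0.36 ± 0.12, unadjusted p = 0.00433, adjusted p = 0.34, limma), Cfb (0.21 ± 0.07, unadjusted p = 0.00697) and C2 (0.15 ± 0.06, unadjusted p = 0.0134), and all 5 core complement genes were above 0. The strata were not alike. C8a reached that level in WDF against CDF males (0.67) and in WD against CD females (0.70), and not in the remaining strata. Cfb overlapped between WD males (10067 to 12847) and CD males (10091 to 13889). On the lower side F2 (-0.05 ± 0.06), C9 (-0.19 ± 0.30) and Fga (-0.07 ± 0.14) had the smallest p. All 16 erythroid and 12 megakaryocyte markers were also higher with fat, and all 11 lung and 7 mesothelial markers lower. Folic acid over the 4 strata gave F7 (0.17 ± 0.08, unadjusted p = 0.0375) and Proc (0.11 ± 0.05, unadjusted p = 0.0426) at that level in limma, with 0 lower (all genes: 1.05% higher and 1.28% lower). F10 (0.09 ± 0.05) came next by p, and C9 (-0.45 ± 0.30), C6 (-0.10 ± 0.13) and C2 (-0.04 ± 0.06) had the smallest p on the lower side. With the hepatocyte score as a covariate, or with limma-voom, 0 members reached that level (all genes: 2.1% and 2.36%).

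Fetal sex gave 0 members at an unadjusted p under 0.05, where 1.98% of all genes were higher in females and 1.11% lower. C8b (0.18 ± 0.10), F7 (0.12 ± 0.08) and F10 (0.08 ± 0.05) had the smallest p among members higher in females, and C8a (-0.12 ± 0.12), Serpinf2 (-0.07 ± 0.08) and Kng1 (-0.05 ± 0.07) among those lower. The effect of fat between the sexes also gave 0 (all genes: 0.397% higher and 0.787% lower); Cfi (0.13 ± 0.13), Hc (0.26 ± 0.29) and C2 (0.10 ± 0.12) had the smallest p among those more positive in females, and F7 (-0.25 ± 0.15), Mbl1 (-0.15 ± 0.24) and C4b (-0.15 ± 0.37) among the others. For folic acid between the sexes, C9 (0.41 ± 0.59) and Serpina10 (0.09 ± 0.16) followed C6 by p on the positive side, and C8a (-0.25 ± 0.23), Fgg (-0.18 ± 0.17) and F11 (-0.20 ± 0.21) had the smallest p on the negative side.

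Members differed widely in how much they varied between fetuses of one group. The SD of log2 values within groups was largest for C9 (0.97), Hrg (0.67), C4b (0.60), F5 (0.56) and Mbl2 (0.55), and smallest for Proc (0.13), Serpinc1, antithrombin (0.14), F10 (0.14), F2 (0.15) and C2 (0.16). The median over the 38 genes was 0.303, against 0.375 over all genes tested. Over all libraries C9 spanned 24-fold, from 15.6 to 374.3, while antithrombin spanned 1.53-fold.

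After removal of the group means, some members varied together over the 38 libraries. This is a description across libraries whose normalized totals and marker sums of other cell types also differed. Fga and Fgb had r = 0.965, Fgg and Fgb 0.846, and F13b, the fibrin cross-linker's subunit, and F9 0.963. The mannose-binding lectins Mbl1 and Mbl2 had 0.832, Hrg and its neighbour Kng1 0.746, and C4b and Cfb 0.698. Neighbouring genes did not always vary together: C8a and C8b had 0.292, F11 and Klkb1 0.392, F7 and F10 0.398, and Cfb and C2 0.296. The lower coordinates of C8a and C8b lie 49.4 kb apart, and those of F11 and Klkb1 25.5 kb. C8g and C3 ran against each other at -0.832. Of 703 pairs, 193 had r above 0.5 and 51 below -0.5, with a median of 0.256; over all 40 libraries the median was 0.942. The share over pairs of all genes was not computed, so these counts cannot be read as particular to the members.

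Some members also varied with a measure of transcript length, in a share near that of all genes. For the correlations, log2 values were taken as deviations from each gene's mean in its group, over the 38 libraries. A transcript length index of each library was the median deviation of 3167 genes with transcripts over 5000 bases minus that of 2520 genes under 1500 bases. Within groups, 13 members had r above 0.5 with it (all genes: 28.2%), led by Masp1 (0.928), F5 (0.920), C3 (0.866), F9 (0.838), Pros1 (0.827) and Fga (0.811). The 6 with r below -0.5 (all genes: 26.3%) were C8g (-0.903), Serpina10 (-0.811), Mbl1 (-0.768), C4b (-0.685), Serpinf2 (-0.639) and C8a (-0.566). Proc (0.04), F7 (-0.14), Serpinc1 (-0.19) and Klkb1 (0.10) hardly followed it. The members' own transcripts had medians of 2.73 kb in the 13 and 2.84 kb in the 6, and GC contents of 46.5% and 51.5%. Over the 38 genes, given as a description across genes, Spearman's rho with r was 0.344 for length and -0.359 for GC content.

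For the values below and for the covariate, the index was taken from deviations from each gene's mean over all 40 libraries, not from group means. Taken so, the index was lowest in CDF female replicate 4 (-1.75) and CD male replicate 4 (-0.747), which held several of the members' extreme values. By group it was -0.21 ± 0.19 (SD, n = 5) in WDF males and 0.05 ± 0.59 in WD males, with overlap. With the index as a covariate, WDF against WD males gave 0.86 for C4b (unadjusted p = 0.00317), 0.42 for F12, 0.42 for Klkb1, 0.38 for Cfb and -0.85 for C6 (unadjusted p = 0.00179). With it, 11 members were higher and 2 lower at an unadjusted p under 0.05, beside 12.7% of all genes.

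**Figure D5:**
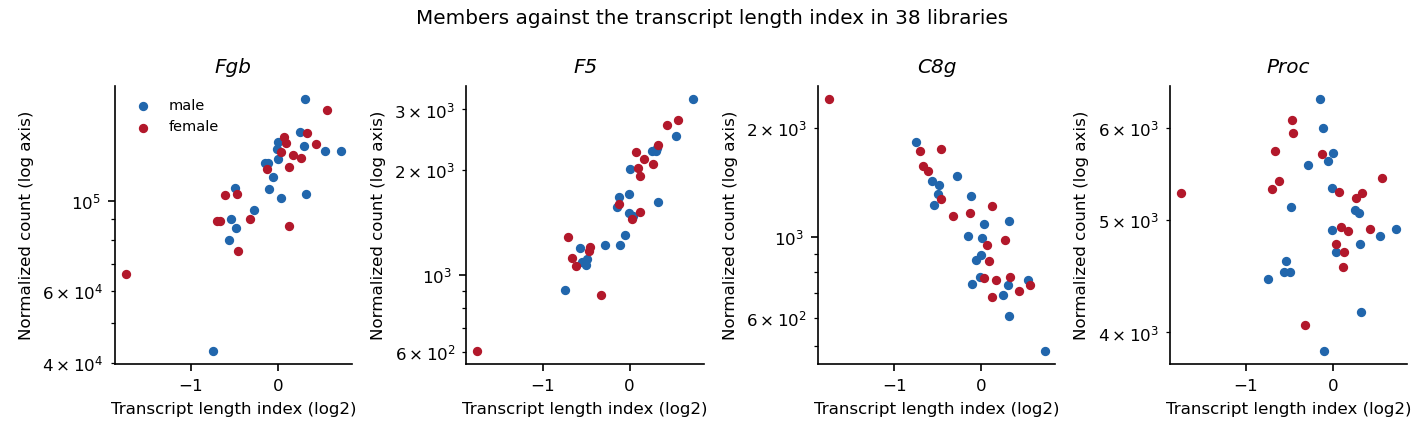
Normalized count (vertical log axes) of Fgb, F5, C8g and Proc against the transcript length index (horizontal, log2) in 38 libraries, blue male and red female. The index drawn was taken from gene means over all 40 libraries, and r from deviations from group means. Fgb and F5 are higher and C8g lower where the index is high, with r of 0.778, 0.920 and -0.903 within groups, while Proc shows no slope (0.04).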

How the data were processed

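Polyadenylated RNA of 40 fetal livers was sequenced as paired ends of 43 nt from directional libraries (labels' protocols). Reads were handled with STAR 2.7.3a, Trimmomatic 0.39, DESeq2 1.24 and Salmon 1.3.0 against mm10, per the submitters' processing notes (settings not given in the sources used here). Gene values as deposited are a signal scale: read counts divided by size factors by the authors, with values that are not whole, so read depth per library is unknown here and normalized totals stand in for it. The authors also deposited tables of log2 fold changes with p-values and mean signal for 4 folic acid comparisons.

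Values were analysed as log2(value + 1) with limma 3.58.1 (trend and robust moderation) under R 4.3.3. The model had a mean for each group in 38 libraries, with Benjamini-Hochberg adjustment over 15377 genes at 10 or more in at least 5 libraries. Log2 differences understate changes of low genes. The script was tested on simulated data. All 38 members were named in GENCODE M21 annotation (GRCm38), and 28 in the RefSeq promoter table (GRCm38.p6). The members, gene lists and tests were chosen with earlier results of these data known. In each comparison, members past the threshold were to be named, or else the 3 of smallest p in each direction; C4b, F10, Proc, Mbl2 and C8a in WDF against WD males and Proc in WD against CD females were named after their values were seen. Replicate numbers were not used to pair libraries. Alternatives covered libraries, scaling, filter, pseudocount, test, weights, covariates and each library left out.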

Additional observations from a re-analysis of the deposited data

Results flagged for a closer look

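In groups of 4 or 5 libraries, a value far from the others of its group was found in 13 of 304 groups of values tested, where chance gives about 1 in 20. Of the 13, 6 were in CD male replicate 4: Serpinf2 at 36250 against 18161 to 19369 in the other 4, Pros1 at 190.9 against 401.1 to 466.8, Mbl1 at 1295 against 811.8 to 910.1, C4b at 14760 against 3394 to 6179, C8g at 1823 against 690.3 to 892.0, and C9 at 261.7 against 97.5 to 136.7. CDF female replicate 4 held Mbl1 at 2486 against 868.8 to 1053 and Hc at 725.4 against 3339 to 3713. CD female replicate 5 held Proc at 4058 against 4765 to 4911 and C8g at 1140 against 710.1 to 772.7. The other 3 were Serpinc1 in CD male replicate 3 (15320 against 17750 to 18150), Proc in WD female replicate 5 (5940 against 5220 to 5404) and Masp2 in WD male replicate 3 (1192 against 1083 to 1097). In the libraries left out of all comparisons, Pros1 reached 1313 in CD female replicate 4 and 1103 in CDF female replicate 5 against a highest value of 639.5 elsewhere, and C6 reached 202.8 in the former against 202.1.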

How the results depend on the processing

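Of 96 results of named members, each recomputed under 18 or 19 alternatives and with each library left out, 36 alternative values changed sign; in the 15 comparisons 0 members passed at the main settings and with any library left out, and members passed only with library weights (8 in WDF against WD males, 3 in WDF against CDF males, 3 for fat, 4 for the interaction in males). Genes called with weights numbered 621, 241, 486 and 397 there and 145 in WD against CD males. Genes called for fat, 7 at the main settings, were 3 with all 40 libraries, 11 with 36 libraries without the lung-rich ones, 11 with a pseudocount of 5, 14 with the erythroid score as a covariate, 22 at an adjusted p under 0.1, 19 without CD male 4 and CDF female 4 (chosen after seeing the data), 69 with the length index as a covariate (chosen after seeing the data) and 3 to 53 with each library left out, the highest without CDF male 2. One gene was called in WD against CD males with the erythroid score and 1 with the length index, and 1 in WD against CD females when only these groups were fitted. With a library left out, 0 to 8 genes were called in WDF against CDF males (8 without CDF male 2), 0 to 2 in WDF against WD males, and 0 to 1 in WD against CD males, WD against CD, WDF against CDF and CDF against CD females.

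The members' median moved with all 40 libraries to 1.47 in WD against CD females, 1.56 in WDF against CDF females, -0.063 in CDF against CD females, 0.75 for fat, -0.67 for sex and 1.46 for fat by sex. With limma-voom it was -0.011, 0.22, -0.18 and 0.23 in WD against CD, WDF against CDF and CDF against CD females and the interaction in females. With the hepatocyte score it was -0.069 in WDF against WD males and -0.18 for the interaction in males. The cause of these moves was not tested. In the limma-voom setting each library was also scaled by its normalized total, unlike in the main fit.

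Signs turned with all 40 libraries for F13b (1.06) and F2 (1.31) in WD against CD females, Serpina10 (1.27), Mbl1 (0.82) and F7 (0.51) in WDF against CDF females, F2 (0.71), C9 (0.51) and Fga (0.68) for fat, C8b (-0.59), F7 (-0.22) and F10 (-0.59) for sex, and F7 (0.43), Mbl1 (1.07) and C4b (1.26) for fat by sex. With 36 libraries without the lung-rich ones, Hc (-0.16) and Mbl1 (0.050) turned for fat by sex and Serpina10 (-0.027) for folic acid by sex; Serpina10 turned there too with limma-voom (-0.0020), with weights (-0.062) and without CD male 4 and CDF female 4 (-0.071). With the erythroid score F13b (0.13), F2 (0.019) and Pros1 (0.053) turned in WD against CD females and F2 (0.018) and Fga (0.15) for fat; with weights Kng1 (0.033) for sex and F11 (0.023) for folic acid by sex. Without CD male 4 and CDF female 4, Hc (0.11) and Masp1 (0.082) turned in CDF against CD females. With the length index Pros1 (0.030) turned in WD against CD females, Masp1 (0.11) in CDF against CD females, F5 (-0.046) and Pros1 (-0.0016) in WDF against WD females, and F5 (-0.23), F11 (-0.037) and Pros1 (-0.083) in the interaction in females. With each library left out, Hc (-0.72 to 0.11) and Masp1 (-0.55 to 0.082) in CDF against CD females, Hc (-0.025 to 0.37) and Mbl1 (-0.23 to 0.019) for fat by sex and Serpina10 (-0.031 to 0.16) for folic acid by sex changed sign, each without CDF female 4. None of these values passed the threshold.

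In the 8 comparisons between single groups, all within a sex, same-numbered libraries did not vary together in all pairs (1 to 4 pairs had r under 0.1). Same-numbered male and female libraries were not compared, so this check cannot decide whether the numbers pair samples. With a replicate block, 0 members and 2 genes for fat were called. Scaling by trimmed means moved the median gene by -0.11 to 0.03. Read depth is unknown, so the counting error of low genes such as C6 and C9 could not be estimated.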
